A study of Mus musculus with 20 samples.

Results

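The mRNA levels of 10 transcription factor genes of the AP-1 and immediate-early class were examined in BV-2 microglia that were young or aged in culture and untreated or stimulated with lipopolysaccharide (LPS). The members were Fos, Fosl2, Jun, Junb, Jund, Atf3, Batf, Egr1, Egr2 and Maff, and they are 10 of the 55487 gene identifiers counted. The members were picked by gene symbol, with earlier results of these data known. Each matched 1 identifier, and 8 of the 10 had enough reads for testing among 12799 genes tested, while Batf and Egr1 did not. BV-2 is an immortalised microglial line from the brain of C57BL/6 mice, and all cultures carried the wild-type genotype according to the labels. Poly(A) RNA was sequenced from 20 cultures in 4 groups of 5. The groups were young untreated cells, young cells with 100 ng/ml bacterial LPS for 6 hours, aged untreated cells, and aged cells with the same LPS dose and time. Young cells were at low passage. Aged cells came from a long cultivation of the same line, begun at a later passage, and were frozen as aliquots, so that "aged" stands for time in culture and not for the age of an animal. No separate cultivation is described for each aged replicate. The study calls the replicates biological, and the labels number them 1 to 5 and give that number as a batch, with 1 culture of every group in each batch.

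AP-1 is a dimer of basic leucine zipper proteins. A JUN protein (Jun, Junb or Jund) pairs with itself, with a FOS protein (Fos, Fosb, Fosl1 or Fosl2) or with relatives such as ATF3 and BATF, and the pair decides which DNA element is bound and whether transcription is raised or held back. Immediate-early genes are those that cells switch on after a stimulus without new protein synthesis, often with a short burst of mRNA. In microglia and macrophages, LPS binds Toll-like receptor 4 and activates NF-kappaB and the MAP kinases ERK, JNK and p38, which act on these factors and on their genes.

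The depth was 11371508 to 16829292 counts per library, with a median of 14370473. Levels are given as CPM, counts scaled to a common library size, after TMM scaling, which adjusts library sizes for differences in RNA composition, and differences are log2 fold changes with standard errors (SE) from edgeR's quasi-likelihood test, adjusted over all 12799 genes. A change was called at an adjusted p below 0.05. A count of 3 in a library, 0.165 to 0.296 CPM, was taken as the floor of detection, which covers counting error only. Of 12 microglial marker genes 11 were detected well enough to be tested, with a summed level of 2300.5 to 4269 CPM per library, and the microglial transcription factor Sall1 had no count in any library. None of the 4 markers each of astrocytes, neurons and fibroblasts reached the level for testing. In bulk RNA, fewer cells with a transcript and less of it per cell cannot be told apart.

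Promoters of 5 members are shown because these genes span the range of responses described in the following paragraphs, from Fos, with no called change, to the large rise of Maff and Atf3, with the age difference of Junb. The windows are RefSeq sequences of the mouse build GRCm38.p6, from 250 bases before to 50 bases after an annotated start, printed 5′ to 3′ in the direction of transcription. Capitals mark matches, on either strand, to the AP-1 element TGANTCA, the CRE-like element TGACNTCA, its 6-base core TGACGT (which overlaps the longer element where that holds G), the CArG box of SRF or the kappaB motif of NF-kappaB. Fos lies on the plus strand at chr12:85473640-85473939, Jun on the minus strand at chr4:95052173-95052472, Junb on the minus strand at chr8:84978699-84978998, Atf3 on the minus strand at chr1:191183284-191183583, and the second of 3 Maff windows on the plus strand at chr15:79347270-79347569.
Fos: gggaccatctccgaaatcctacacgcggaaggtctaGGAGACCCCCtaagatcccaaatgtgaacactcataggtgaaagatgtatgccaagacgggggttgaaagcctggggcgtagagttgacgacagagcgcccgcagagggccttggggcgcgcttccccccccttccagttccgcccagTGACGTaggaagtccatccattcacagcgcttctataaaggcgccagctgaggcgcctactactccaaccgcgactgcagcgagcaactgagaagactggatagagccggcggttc
Jun: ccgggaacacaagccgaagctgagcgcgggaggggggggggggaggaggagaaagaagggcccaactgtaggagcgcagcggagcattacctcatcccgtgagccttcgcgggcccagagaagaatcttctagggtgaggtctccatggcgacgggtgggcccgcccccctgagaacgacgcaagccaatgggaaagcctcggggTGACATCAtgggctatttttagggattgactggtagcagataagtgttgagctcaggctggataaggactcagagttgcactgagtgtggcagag
Junb: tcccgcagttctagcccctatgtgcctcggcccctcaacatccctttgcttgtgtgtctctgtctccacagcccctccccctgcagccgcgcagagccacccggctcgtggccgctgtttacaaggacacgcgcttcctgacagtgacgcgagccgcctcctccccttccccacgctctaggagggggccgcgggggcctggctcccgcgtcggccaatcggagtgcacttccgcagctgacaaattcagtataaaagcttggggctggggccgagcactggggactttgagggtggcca
Atf3: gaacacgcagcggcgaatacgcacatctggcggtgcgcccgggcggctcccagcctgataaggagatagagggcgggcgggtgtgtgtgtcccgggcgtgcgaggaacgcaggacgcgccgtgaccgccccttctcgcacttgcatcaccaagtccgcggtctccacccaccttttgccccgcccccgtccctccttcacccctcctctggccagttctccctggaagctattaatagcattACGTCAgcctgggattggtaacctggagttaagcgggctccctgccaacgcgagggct
Maff, second window: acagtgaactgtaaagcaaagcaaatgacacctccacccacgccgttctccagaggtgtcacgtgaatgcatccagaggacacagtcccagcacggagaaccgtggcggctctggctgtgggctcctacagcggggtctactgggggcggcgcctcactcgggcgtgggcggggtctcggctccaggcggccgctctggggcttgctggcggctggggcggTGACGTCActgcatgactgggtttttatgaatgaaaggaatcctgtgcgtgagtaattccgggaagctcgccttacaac

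The printed Maff window held TGACGTCA 29 to 22 bases before the start, and the Jun window held TGACATCA 45 to 38 bases before it. Both strings are forms of TGACNTCA, which occurred in 8.83% of 32851 windows of the same length. Fos had TGACGT 66 to 61 bases before its start together with a kappaB match, and Atf3 had the same 6 bases on the opposite strand 8 to 3 bases before its start. That Atf3 start lies inside the gene as counted, which spans 191170296 to 191218039 on the minus strand. TGACGT was in 7.51% of all windows and the kappaB motif in 4.51%. Of the Maff windows not printed, the first held no match. The third held TGACATCA 45 to 38 bases before its start and a kappaB match 70 to 61 bases before it. The Junb window held none of the 5 motifs. Nor did the window listed for Jund, chr8:70697489-70697788, but it ends upstream of the gene as counted, which starts at 70698949. TGANTCA, found in 7.81% of all windows, was in none of the 15 windows searched, which cover 9 of the 10 members. Windows on chromosome 18, where Egr1 lies, were left out of the search of members. Fosl2 held a pair of overlapping kappaB matches, and a CArG box, which was in 1.63% of all windows, was in 4 of the 5 Egr2 windows, of which 3 overlap and share the same box. These are matches of letters and say nothing of binding in BV-2 cells.

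LPS raised 6 of the 8 tested members in young cells and the same 6 in aged cells: Fosl2, Jun, Junb, Jund, Atf3 and Maff. Among all genes tested, 64.6% were called in young cells and 31.2% were called as higher, and in aged cells 54.4% were called and 27.5% as higher. The median log2 fold change of the 8 members was 1.17 in young and 1.14 in aged cells, beside −0.011 and 0.00051 over all genes tested. In both ages the 6 members had no overlap between the 5 LPS-treated and the 5 untreated cultures, which was the case in the same direction for 23.9% of all genes in young and 21.0% in aged cells. The contrasts between ages share these cultures with the LPS contrasts, so they are not independent of each other. Leaving out any single library or replicate number kept 6 members called in each age.

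**Figure D1:**
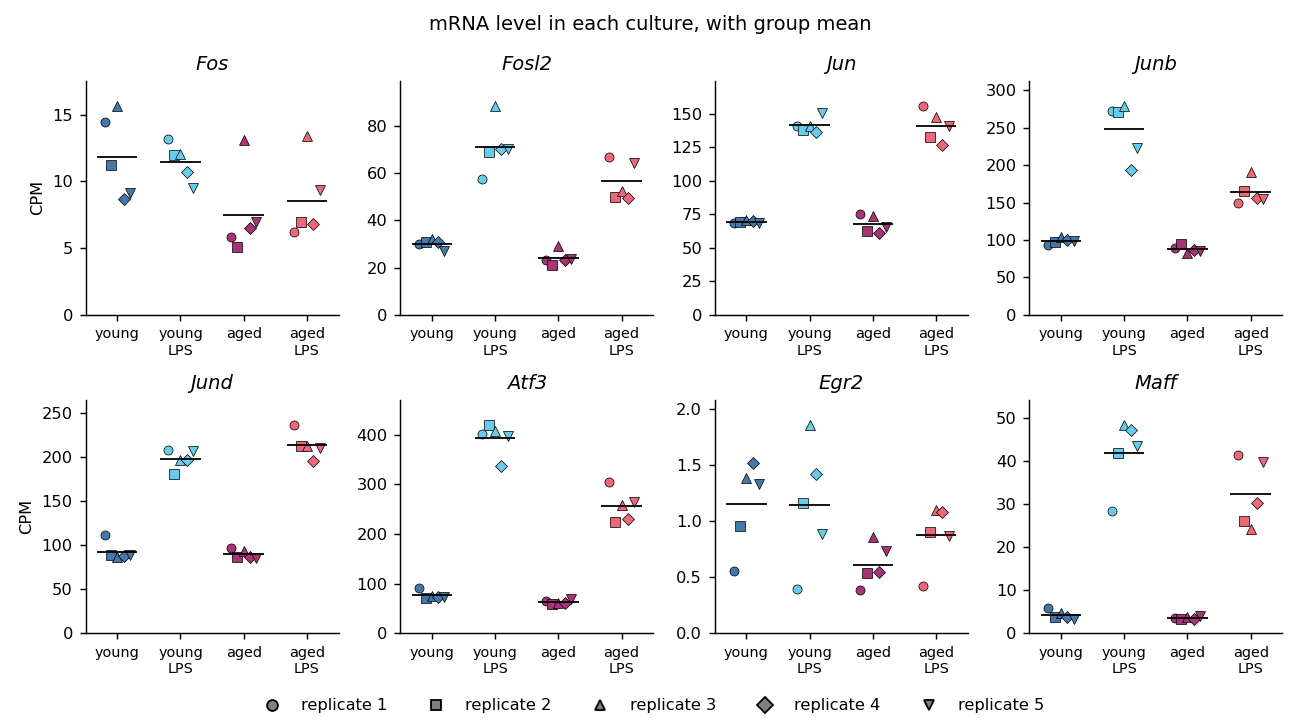
CPM (y axis, linear from 0, with its own scale per gene) of the 8 tested members in each of the 20 cultures, grouped on the x axis into young, young LPS, aged and aged LPS, with 1 marker shape per replicate number and a bar at the group mean. Fosl2, Jun, Junb, Jund, Atf3 and Maff lie higher in every LPS-treated culture than in every untreated one of the same age, and for Junb and Atf3 the aged LPS cultures all lie below the young LPS cultures.

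Among the JUN genes, Junb was the member that separated the ages. Junb encodes a JUN protein that activates more weakly than JUN on many promoters and can hold JUN back. Its level in replicates 1 to 5 of untreated young cultures was 94.0, 98.0, 104, 99.6 and 98.2 CPM, and in untreated aged cultures it was 88.8, 95.0, 82.5, 87.2 and 86.0 CPM. After LPS it was 272, 272, 279, 194 and 223 CPM in young and 149.5, 166, 191, 157 and 155 CPM in aged cultures. Every LPS-treated young culture lay above every LPS-treated aged culture, although young replicate 4 lay close to aged replicate 3. The untreated groups overlapped, since aged replicate 2 lay above young replicate 1. Junb rose by a log2 fold change of 1.33 (SE 0.084, adjusted p = 3.25e-12) in young cells, which is 2.51-fold, and by 0.90 (SE 0.083, adjusted p = 4.83e-09) in aged cells, which is 1.86-fold.

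After LPS, Junb was lower in aged than in young cells with a log2 fold change of -0.60 (SE 0.082, adjusted p = 9.98e-06), or 1.52-fold lower. In untreated cells its log2 fold change of -0.17 (95% confidence interval -0.34 to 0.0033, adjusted p = 0.203) was not called, except in a fit of the compared groups alone (-0.16, adjusted p = 0.041). The rise itself was smaller in aged cells, with a difference of -0.43 in log2 fold change (SE 0.12, adjusted p = 0.0285). Within replicate numbers 1 to 5 this difference was -0.78, -0.67, -0.21, -0.12 and -0.33, so that the aged response was smaller in all 5. Junb was the 1 member of 8 called in the test of the difference, beside 6.39% of all genes called and 2.27% called in the same direction. The call rested on several libraries. It was lost, at a difference of −0.34 to −0.45, without replicate number 1 (adjusted p = 0.166), 2 (0.244) or 5 (0.0846), and it was also lost, with an adjusted p of 0.0516 to 0.0648, without young untreated replicate 2, young LPS replicate 2 or 3, aged untreated replicate 2, or aged LPS replicate 1, 4 or 5.

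Junb lies on chromosome 8 at 84974484 to 84978718 of GRCm38 on the minus strand, and the peroxiredoxin gene Prdx2 overlaps it on the opposite strand. The libraries kept the strand, but the strand setting of the read counting is not given in the sources used here. Prdx2 had 1409 to 2645 counts per library. It did not pass the test for LPS in young or aged cells (log2 fold change −0.073, adjusted p = 0.44, and −0.13, adjusted p = 0.193). It was lower in aged than young LPS-treated cells by a log2 fold change of −0.28 (adjusted p = 0.0115), and its difference of LPS responses was −0.053 (adjusted p = 0.87). The part of shared reads in the Junb values was not tested.

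Jun and Jund rose in both ages, and no difference between ages was called for them. Jun encodes the JUN protein that is switched on by JNK. It stood at 68.2, 69.4, 70.8, 70.0 and 68.6 CPM in untreated young and at 75.5, 62.6, 74.0, 61.0 and 65.5 CPM in untreated aged replicates 1 to 5. LPS-treated cultures had 141, 138, 141, 136 and 151 CPM when young and 156, 133, 148, 127 and 141 CPM when aged. The LPS-treated and untreated cultures were far apart, and the ages overlapped in both states, with a wider spread in aged cells. The log2 fold change with LPS was 1.03 (SE 0.062, adjusted p = 1.40e-12) in young and 1.06 (SE 0.061, adjusted p = 1.52e-12) in aged cells, and the difference of 0.031 was not called (95% confidence interval -0.15 to 0.21). Between ages the interval was -0.16 to 0.093 in untreated and -0.13 to 0.12 in LPS-treated cells.

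Jund, the JUN gene that resting cells usually keep on, had 111, 89.2, 86.2, 87.7 and 89.4 CPM in untreated young and 96.9, 87.2, 94.0, 87.1 and 85.2 CPM in untreated aged replicates 1 to 5. With LPS it had 208, 181, 197, 197 and 208 CPM in young and 237, 212, 212, 195 and 210.3 CPM in aged replicates. Young untreated replicate 1 stood above its group, and the ages overlapped with and without LPS. Jund rose by a log2 fold change of 1.09 (SE 0.066, adjusted p = 1.74e-12) in young and 1.24 (SE 0.066, adjusted p = 3.69e-13) in aged cells. The difference, 0.15, was not called (95% confidence interval -0.043 to 0.34). After LPS the fitted level of Jund was higher in aged than in young cells by a log2 fold change of 0.11 that was not called (95% confidence interval -0.027 to 0.24) unless counts were scaled by library size alone (0.19, adjusted p = 0.0224). Small antisense genes overlap Jun (Junos, 3 to 25 counts) and Jund (Gm11175, 11 to 31 counts).

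Divided by the length of all annotated exons, Jund had the highest mean of the JUN genes in every group. Per kilobase of exon, the CPM levels in untreated young cells were 55.6 ± 6.27 for Jund, 43.0 ± 1.65 for Junb and 21.8 ± 0.329 for Jun (mean ± SD, n = 5), and in LPS-treated young cells 119 ± 6.49, 108 ± 16.3 and 44.4 ± 1.78. Untreated aged cells had 54.0 ± 3.05, 38.2 ± 2.00 and 21.2 ± 2.09, and LPS-treated aged cells 128 ± 9.00, 71.1 ± 7.07 and 44.2 ± 3.62. The sum of the 3 rose from 120.3 ± 4.87 to 271 ± 16.5 in young and from 113 ± 4.75 to 243 ± 13.4 CPM per kilobase in aged cells. Junb held 35.8% ± 2.42 of that sum in untreated and 39.6% ± 4.16 in LPS-treated young cells, while in aged cells it held 33.7% ± 2.16 and 29.2% ± 2.57. After LPS the 5 shares of Junb, 34.4% to 43.7% in young and 25.4% to 32.3% in aged cultures, did not overlap, and those of Jund, 40.2% to 48.2% in young and 49.6% to 55.5% in aged cultures, did not overlap in the other direction. These shares are descriptions without a test.

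**Figure D2:**
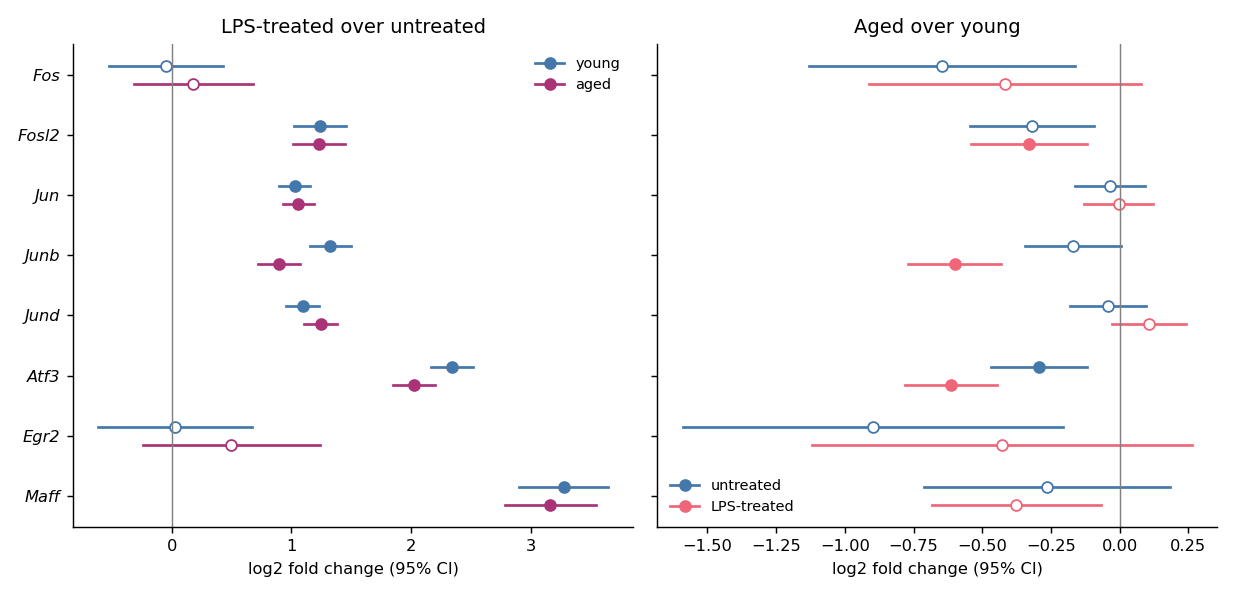
Log2 fold changes (x axis) of the 8 tested members (y axis) with 95% confidence intervals as lines, on the left for LPS-treated over untreated cells of each age and on the right for aged over young cells in each state. Filled points are called at an adjusted p below 0.05, which holds for 6 members in each age on the left, for Atf3 in untreated cells and for Fosl2, Junb and Atf3 in LPS-treated cells on the right.

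Of the FOS genes among the members, Fosl2 was called with LPS and Fos was not. Fosl2 encodes FRA-2, a FOS protein without the strong activation domain of FOS. It was at 29.8, 30.9, 32.1, 30.6 and 27.1 CPM in untreated young and at 23.3, 21.2, 29.1, 23.3 and 23.5 CPM in untreated aged replicates 1 to 5. With LPS it reached 57.4, 68.9, 88.3, 70.3 and 70.1 CPM in young and 66.6, 49.9, 52.5, 49.6 and 64.3 CPM in aged replicates. Young LPS replicate 3 was the highest of all, and replicate 1 was the lowest young but the highest aged culture after LPS, so the ages overlapped. The log2 fold change with LPS was 1.24 (SE 0.10, adjusted p = 5.48e-10) in young and 1.23 (SE 0.11, adjusted p = 1.46e-09) in aged cells. The difference of -0.0092 was not called (95% confidence interval -0.32 to 0.30).

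Fosl2 was lower in aged than in young cells after LPS, with a log2 fold change of -0.33 (SE 0.10, adjusted p = 0.0178), and in 4 of 5 replicate numbers. That call was lost without replicate number 2 (adjusted p = 0.0968), 3 (0.0984) or 4 (0.0928), without young LPS replicate 3 (0.0785) and without aged LPS replicate 2 (0.055) or 4 (0.0573). It was also lost with scaling by library size alone (0.0623) and in a fit of the compared groups alone (0.0555). In untreated cells the log2 fold change was -0.32 (adjusted p = 0.0583), lower in all 5 replicate numbers. It was called once the replicate number was in the model as a block (adjusted p = 0.0394). The DESeq2 test (0.0396), a fit without the filter on low counts (0.047) and one of the compared groups alone (0.0205) also called it, but the other scalings did not.

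Fos, the classical immediate-early gene of the family, was low in all 4 groups. LPS-treated cells were sampled at 6 hours only, so an earlier, short rise of Fos was not measured. Untreated young replicates 1 to 5 had 14.4, 11.2, 15.6, 8.70 and 9.12 CPM and untreated aged replicates 5.82, 5.11, 13.1, 6.54 and 6.93 CPM. With LPS, young replicates had 13.1, 11.9, 12.1, 10.7 and 9.51 CPM and aged replicates 6.18, 6.93, 13.4, 6.81 and 9.33 CPM. All 4 groups overlapped. Aged replicate 3 lay well above the other aged cultures both with and without LPS, while the remaining aged untreated cultures were all below the young ones. The log2 fold change with LPS was -0.049 in young (95% confidence interval -0.53 to 0.43, adjusted p = 0.866) and 0.18 in aged cells (-0.32 to 0.68, adjusted p = 0.555), and neither was called. Within replicate numbers, LPS-treated cultures were higher in 3 of 5 young and in 5 of 5 aged pairs, the latter by 0.027 to 0.43 on the log2 scale.

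The lower Fos level of aged untreated cells was -0.65 on the log2 scale (SE 0.23, adjusted p = 0.0756), below 0 in all 5 replicate numbers. It was not called, but was called with the replicate block (adjusted p = 0.0114), and without aged untreated replicate 3 it was −0.95 (adjusted p = 0.00469). The DESeq2 test (0.0463) and a fit without the filter on low counts (0.0401) also called it, but the other scalings did not. After LPS the difference between ages was -0.42 (95% confidence interval -0.91 to 0.078), and without aged LPS replicate 3 it was −0.64 and called (adjusted p = 0.0394).

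Per kilobase, the FOS genes changed places with LPS. In untreated young cells Fos held 42.4% ± 5.20 of the summed FOS level, Fosl1 30.0% ± 3.36 and Fosl2 27.0% ± 3.28 (mean ± SD, n = 5), and in LPS-treated young cells Fos held 10.5% ± 1.45, Fosl1 73.7% ± 1.82 and Fosl2 15.8% ± 1.89. Fosl1, which encodes FRA-1 and is not one of the 10 members, was thus the main FOS mRNA per kilobase after LPS. That rank depends on the length used, which counts all annotated exons and is 9680 bases for Fosl2. In CPM, LPS-treated young cells had 69.6 ± 4.85 for Fosl1 and 71.0 ± 11.1 for Fosl2. LPS-treated aged cells had 71.2 ± 5.07 and 56.6 ± 8.22 CPM. The FOS sum per kilobase rose from 11.7 ± 1.82 to 46.4 ± 3.00 CPM in young and from 11.5 ± 3.06 to 44.5 ± 1.53 in aged cells. In untreated aged cells Fosl1 already held 49.2% ± 7.91 of that sum and Fos 27.4% ± 5.71, and after LPS 78.6% ± 3.57 and 8.20% ± 3.09. Fosl1 was higher in untreated aged than young cells by a log2 fold change of 0.72 (SE 0.16, adjusted p = 0.00648), although the groups overlapped. Fosb, the remaining gene of the family, had at most 17 counts in a library and held under 1% of the sum on average in each group.

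**Figure D3:**
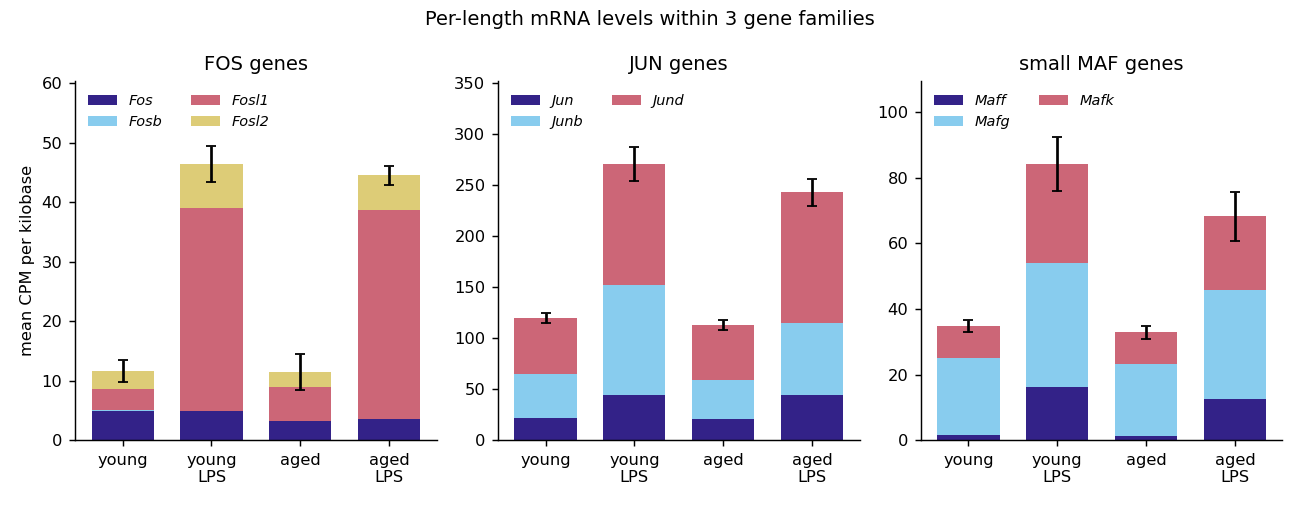
Mean level in CPM per kilobase of exon (y axis, from 0) of the FOS, JUN and small MAF genes as stacked bars for the 4 groups (x axis), with error bars of 1 SD of the family sum over 5 cultures. Fosl1 makes up most of the FOS bar after LPS, and the Junb segment is smaller in aged than in young LPS-treated cells while the Jun segments have means of 44.4 and 44.2 CPM per kilobase.

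Atf3 had the highest mean per kilobase of the 8 members after LPS in young cells and was lower in aged cells in both states. ATF3 is a basic leucine zipper factor of the CREB family that Toll-like receptor signalling induces and that is known to restrain cytokine genes such as Il6. Untreated young replicates 1 to 5 had 91.8, 71.8, 75.5, 73.8 and 73.0 CPM and untreated aged replicates 66.1, 58.9, 61.6, 60.1 and 68.1 CPM. With LPS the levels were 401, 420.3, 407, 338 and 396 CPM in young and 305, 223, 258, 229.6 and 265 CPM in aged replicates. Neither pair of age groups overlapped (6.63% of all genes were lower without overlap in untreated aged cells), with the highest aged LPS culture (replicate 1) below the lowest young LPS culture (replicate 4). The 4 groups therefore followed each other without overlap in the order young LPS, aged LPS, young untreated and aged untreated.

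The log2 fold change of Atf3 with LPS was 2.35 (SE 0.085, adjusted p = 2.68e-16) in young cells, or 5.08-fold, and 2.03 (SE 0.084, adjusted p = 5.47e-15) in aged cells, or 4.07-fold. After LPS it was -0.61 (SE 0.080, adjusted p = 5.86e-06) in aged over young cells, which is 1.53-fold lower. The LPS response differed between ages by -0.32 (SE 0.12, adjusted p = 0.110), which was not called, and was smaller in aged cells in 4 of 5 replicate numbers. With the replicate block that difference was called (−0.33, adjusted p = 0.0213), beside 9.03% of all genes called in that fit. It was also called without replicate number 1 (−0.43, adjusted p = 0.0145), and with a difference of −0.37 to −0.39 without young untreated replicate 1 (0.0333), young LPS replicate 4 (0.0433) or aged LPS replicate 1 (0.0301).

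In untreated cells, Atf3 was lower in aged cells by a log2 fold change of -0.29 (SE 0.083, adjusted p = 0.0249), or 1.23-fold, and lower in all 5 replicate numbers. It was the 1 member of 8 called between untreated ages, where 11.5% of all genes were called and 7.81% as lower. With the replicate block 4 members were called, Atf3, Fos, Fosl2 and Egr2, beside 17.2% of all genes. The Atf3 call was lost without replicate number 2 (adjusted p = 0.0791), 3 (0.0799) or 4 (0.0508), and without young untreated replicate 1 (0.085) or aged untreated replicate 2 (0.0679) or 4 (0.0651). All 8 members had a log2 fold change below 0 in this contrast, with a median of −0.28 beside −0.014 over all genes tested, and 7 of the 8 were not called.

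Maff had the largest rise of the tested members. It encodes a small MAF protein, which binds DNA but has no activation domain and acts through partners such as NRF2 and BACH1. Untreated young replicates 1 to 5 had 5.93, 3.84, 4.77, 3.89 and 3.26 CPM and untreated aged replicates 3.49, 3.30, 3.88, 3.30 and 4.06 CPM. With LPS the levels were 28.4, 41.9, 48.5, 47.2 and 43.6 CPM in young and 41.4, 26.1, 24.2, 30.4 and 39.9 CPM in aged replicates. Replicate 1 was the lowest of the young and the highest of the aged LPS-treated cultures, and the ages overlapped.

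The log2 fold change of Maff with LPS was 3.28 (SE 0.18, adjusted p = 2.59e-13) in young and 3.17 (SE 0.18, adjusted p = 1.31e-12) in aged cells, that is 9.69-fold and 8.98-fold. The LPS-treated aged cells were lower than the young ones by -0.38 on the log2 scale (SE 0.15, adjusted p = 0.0606), which was not called. It was called with DESeq2 size factors (−0.39, adjusted p = 0.0494) and without the filter on low counts (−0.37, adjusted p = 0.0433). Without replicate number 1 it was −0.59 and called (adjusted p = 0.00119), as it was without young LPS replicate 1 (−0.48, adjusted p = 0.00918), aged LPS replicate 1 (−0.48, 0.0197), aged LPS replicate 5 (−0.46, 0.0301) or young untreated replicate 1 (−0.38, 0.0492). The LPS response differed between ages by -0.11 (95% confidence interval -0.66 to 0.43), with values of 1.28, -0.47, -0.71, -0.40 and -0.43 within replicate numbers 1 to 5. Replicate 1 went in the opposite direction to the other four.

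**Figure D4:**
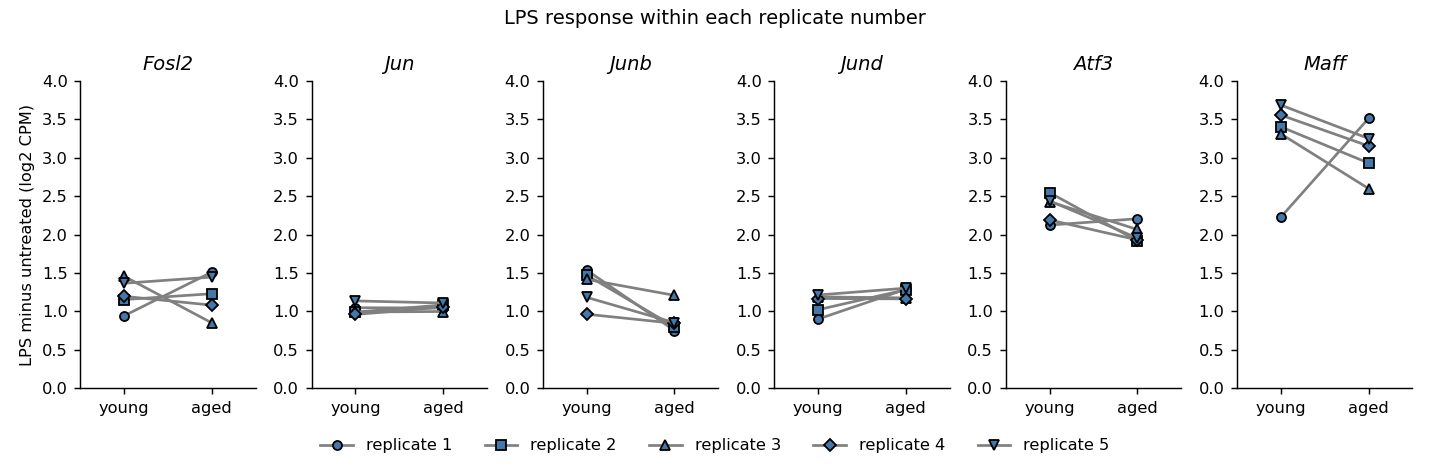
LPS response, as log2 CPM of the LPS-treated minus the untreated culture of the same replicate number and age (y axis, from 0 to 4), in young and aged cells (x axis) for the 6 responding members, with a line joining the ages of each replicate number. All 5 lines fall for Junb, 4 of 5 fall for Atf3 and for Maff, and those of Jun differ between ages by −0.028 to 0.096.

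Within the small MAF family Maff was the least abundant gene per kilobase in all 4 groups. It held 4.81% ± 1.25 of the summed level of Maff, Mafg and Mafk in untreated young cells and 19.0% ± 2.13 after LPS, and 4.24% ± 0.578 and 18.1% ± 2.62 in aged cells. The sum rose from 34.9 ± 1.74 to 84.2 ± 8.14 CPM per kilobase in young and from 33.0 ± 1.96 to 68.3 ± 7.50 in aged cells. Mafk, another small MAF gene, rose by a log2 fold change of 1.64 (SE 0.064) in young and 1.19 (SE 0.064) in aged cells, and its response was smaller in aged cells by -0.45 on the log2 scale (adjusted p = 0.00336).

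Between LPS-treated ages, 3 of the 8 members were called, Fosl2, Junb and Atf3, all of them lower in aged cells, where 29.0% of all genes tested were called and 15.0% as lower. The groups did not overlap for Junb and Atf3, as for 8.16% of all genes in that direction. The median over the 8 members was −0.40 beside 0.0085 over all genes. Scaling by library size alone moved the median of all genes from −0.011 to −0.23 in the LPS contrast of young cells, from 0.00051 to −0.16 in that of aged cells and from 0.0085 to 0.088 between LPS-treated ages. The 6 LPS calls and the Junb and Atf3 calls held under it.

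The EGR and BATF members were at or near the floor. Egr2 encodes a zinc finger factor that guides macrophage and lymphocyte programmes. It had 4 to 27 counts per library, and its level in replicates 1 to 5 was 0.552, 0.959, 1.39, 1.52 and 1.33 CPM in untreated young and 0.388, 0.538, 0.856, 0.549 and 0.732 CPM in untreated aged cells. With LPS it was 0.395, 1.16, 1.86, 1.42 and 0.884 CPM in young and 0.421, 0.907, 1.10, 1.08 and 0.868 CPM in aged cells. All 4 groups overlapped, and replicate 1 was the lowest culture in each. The log2 fold change with LPS was 0.030 in young (95% confidence interval -0.61 to 0.67) and 0.50 in aged cells (-0.24 to 1.24), and neither was called. At this depth those intervals leave changes of either sign in both ages. In untreated cells the aged level was lower by -0.90 on the log2 scale (SE 0.33, adjusted p = 0.0852), in all 5 replicate numbers, and the difference was called with the replicate block (adjusted p = 0.00584). It was also called without replicate number 1 (−0.95, adjusted p = 0.0269) or young untreated replicate 1 (−1.07, 0.0416).

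Batf, whose protein pairs with JUN proteins and with IRF4 or IRF8 at composite elements, had 0 counts in all 10 untreated libraries. It had 5 counts in total over the young and 3 over the aged LPS-treated cultures, with at most 3 in any library, so all libraries were at or below the floor and no fold change is given. Its neighbour Jdp2 on chromosome 12 had 355 to 970 counts. Egr1, a zinc finger immediate-early gene, had 0 counts in all 20 libraries, which allows up to 0.165 to 0.296 CPM in a library. The gene on one side of it, Reep2, had 0 to 5 counts and the one on the other side, Etf1, had 4738 to 7884. Whether the zero of Egr1 reflects its mRNA or the counting was not tested.

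Compared per kilobase across the members, the order in untreated young cells was Jund (55.6 ± 6.27 CPM per kilobase), Junb (43.0 ± 1.65), Atf3 (35.8 ± 3.84), Jun (21.8 ± 0.329), Fos (5.02 ± 1.32), Fosl2 (3.11 ± 0.192), Maff (1.67 ± 0.401) and Egr2 (0.338 ± 0.116). After LPS in young cells Atf3 came first (182 ± 14.8), before Jund (119 ± 6.49) and Junb (108 ± 16.3), whose means differed by less than the larger of their SDs, and Maff (16.2 ± 3.10) stood above Fosl2 (7.33 ± 1.14) and Fos (4.87 ± 0.596). In LPS-treated aged cells Jund (128 ± 9.00) and Atf3 (119 ± 15.2) also differed by less than the larger of their SDs, and Junb (71.1 ± 7.07) came after them. For Jun, Fosl2 and Maff the group means followed the order young LPS, aged LPS, young untreated, aged untreated, with overlap between the LPS-treated ages and between the untreated ages. For Jund the LPS-treated ages changed places, again with overlap.

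Other genes of the same classes were described from lists, again with LPS sampled at 6 hours only. With LPS, 64.6% of all genes tested were called in young cells (31.2% as higher) and 54.4% in aged cells (27.5% as higher). Of 6 tested AP-1 relatives, LPS raised 3 and lowered 1 in each age, with a median log2 fold change of 0.63 in young and 0.48 in aged cells. Fosl1 rose by 3.29 (SE 0.15) in young and 2.61 (SE 0.14) in aged cells. Batf2, a relative of Batf, went from 0 to 3 counts in untreated libraries to 9.46 ± 2.16 CPM in young and 2.43 ± 0.822 CPM in aged LPS-treated cultures (mean ± SD, n = 5), at least 48.4-fold and 13.0-fold higher against the mean floor of a library. After LPS, Batf2 was lower in aged cells by -1.95 on the log2 scale (SE 0.22, adjusted p = 1.09e-06). Batf3 fell by 0.57 on the log2 scale in young and by 0.53 in aged cells.

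Of 3 other MAF genes, Mafg and Mafk rose in each age, and Maf fell by 0.41 on the log2 scale in aged cells (adjusted p = 0.0177). After LPS, Mafk and Maf were lower in aged than in young cells, with log2 fold changes of -0.43 (SE 0.062) and -0.68 (SE 0.14). Among the 3 tested EGR and NAB genes, Egr3 fell by 2.23 in young and by 1.19 in aged cells on the log2 scale, from 3.21 ± 1.48 CPM in untreated young cells. Nab1, which encodes a corepressor of EGR proteins, rose by 1.24 and 1.00.

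Of 13 other immediate-early genes, 6 rose and 6 fell with LPS in young cells, and 7 rose and 5 fell in aged cells. These are changes at 6 hours, and earlier ones were not measured. The medians were 0.049 and 0.25. Ier3, a survival gene, rose by 3.58 in young and 3.67 in aged cells, and Btg2, an antiproliferative gene, by 2.28 and 2.55. Klf2 fell by 2.34 in young and by 1.40 in aged cells. The difference of responses was called for 2 of the 13, beside 6.39% of all genes. Zfp36, whose protein speeds the decay of cytokine mRNAs, rose less in aged cells, by -0.72 (SE 0.17, adjusted p = 0.0135). Nr4a1, an orphan nuclear receptor gene, fell by 2.03 in young and by 0.97 in aged cells on the log2 scale. Its fall was smaller in aged cells, with a difference of 1.06 (SE 0.30, adjusted p = 0.0372).

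**Figure D5:**
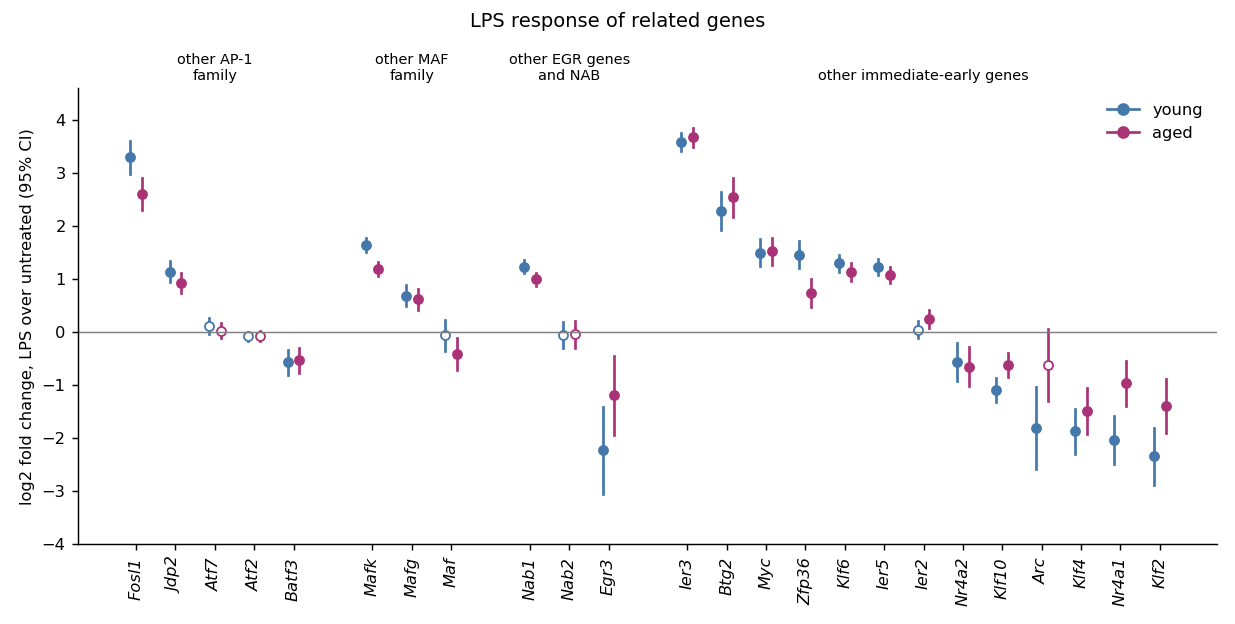
Log2 fold change of LPS-treated over untreated cells (y axis) with 95% confidence intervals as lines for the other AP-1, MAF, EGR and immediate-early genes (x axis) in young and aged cells, filled where called at an adjusted p below 0.05. Fosl1, Ier3 and Btg2 lie highest in both ages, and Egr3, Nr4a1, Klf4 and Klf2 lie lowest in young cells, while Batf2 is left out because its untreated libraries were at or below the floor.

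Of the signalling genes upstream, all 6 SRF and SRF cofactor genes were called with LPS in both ages, 4 higher and 2 lower. Among all genes tested, 64.6% were called in young and 54.4% in aged cells. Between untreated ages, between LPS-treated ages and in the difference of responses, edgeR called 0 of the 6, with 1 of 6 each at an unadjusted p below 0.05 and 0 by DESeq2. The edgeR shares over all genes in these contrasts were 11.5%, 29.0% and 6.39%. Srf itself rose by 0.66 in young and 0.55 in aged cells. Of 17 tested MAP kinase cascade genes, 6 rose and 6 fell in young cells and 5 rose and 5 fell in aged cells. These counts stand beside the same 64.6% and 54.4% of all genes called. Map3k8, which encodes the kinase TPL2 above ERK, rose by 2.03 and 2.00, and was lower in aged cells both untreated, with a log2 fold change of -0.51 (SE 0.16, adjusted p = 0.0398), and after LPS, with -0.53 (SE 0.13, adjusted p = 0.00269). Mapkapk2, a target kinase of p38, rose by 1.98 and 1.69. Irf8, the 1 tested of the 2 IRF partners of BATF, fell by 0.33 in young and by 0.20 in aged cells on the log2 scale.

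Of 14 tested genes that textbooks list as AP-1 targets, 13 rose with LPS in each age, with a median log2 fold change of 3.25 in young and 2.45 in aged cells, and many of them also answer to NF-kappaB. The exception was Ccnd1 in both ages (-0.18 and -0.040, not called). Among all genes tested, 31.2% were called as higher in young and 27.5% in aged cells. Between LPS-treated ages 9 of the 14 were lower in aged cells and 1 was higher, beside the 15.0% and 14.0% of all genes called in these directions. In untreated cells 1, Tnf, was called (-0.56, adjusted p = 0.0385), against 3 with the replicate block, beside 11.5% and 17.2% of all genes. The level of Il6 after LPS was 33.0 ± 16.6 CPM (mean ± SD, n = 5) in young and 5.15 ± 3.70 CPM in aged cultures (log2 fold change -2.66, SE 0.39, adjusted p = 4.43e-05). In the difference of LPS responses edgeR called 0 of the 14, beside 6.39% of all genes, and DESeq2 also called 0. Of the 14, 4 had an unadjusted p below 0.05 and 12 had a smaller fitted response in aged cells.

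The genes whose log2 CPM followed each member most closely over the 20 libraries are given as a description. These correlations rest on 4 groups that share the LPS contrast, and the libraries are not independent in them. Atf3 was closest to Cpeb4 (Pearson r 0.996, Spearman rho 0.964), Tpm4 and Helz2, and Maff to Slc2a1 (0.995 and 0.943), Mdm2 and Riok3. Junb was closest to Ifi205 (0.992 and 0.961), Cers6 and Ptprc, Fosl2 to Arap1 (0.986 and 0.976), Ehbp1l1 and Flna, Jun to Hax1 (0.991 and 0.890), Adhfe1 and Slc11a2, and Jund to Pmp22 (0.989 and 0.823), Lrp12 and Gm20431. Fos was closest to Tnfsfm13 (0.912 and 0.895), Tcn2 and Csf1r, and Csf1r was lower in untreated aged cells by -0.44 (adjusted p = 0.0132). The highest r of Egr2 was 0.746, with Gm22123.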

How the data were processed

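RNA from 20 BV-2 cultures in 4 groups of 5 was analysed. The authors deposited 1 table of raw counts per Ensembl gene. Libraries were stranded and made from poly(A) RNA, and the submitters' processing notes name FastQC 0.11.8, STAR 2.6.1d, featureCounts 1.5.1 and DESeq2, with GRCm38 as the mouse build. The strand and multi-mapping settings of the counting are not given in the sources used here. Reads from overlapping genes are therefore uncertain. Columns were matched to samples by name, and all sample columns were used.

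Counts were tested with edgeR 4.0.16 (R 4.3.3, limma 3.58.1), the quasi-likelihood F-test on all 20 libraries with group as the only factor, TMM scaling and filterByExpr, which kept 12799 genes. P-values were adjusted by Benjamini-Hochberg over all of them. Symbols, positions and exon lengths came from GENCODE for GRCm38. The deposited counts ranged from 11371508 to 16829292 per library, which limits precision for genes of few counts such as Egr2.

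The 10 members were named in full. From each other list, up to 2 genes per contrast and direction with the largest called change and a mean of at least 1 CPM could be named, and for likeness the 3 genes with the highest Pearson r of log2 CPM (prior count 2). Fosb, Jdp2, Ccnd1, Sall1, the genes that overlap or neighbour a member, and genes named as the sole call or exception were added after their values were seen. Members and lists were chosen with earlier results of these data known. A gene of the MAF list is not reported here and is left out of its counts.

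Replicate numbers are batch numbers in the labels, and cultures were paired here by that number. Across genes, the deviation of a culture from its group mean correlated with that of its namesake in another group at 0.146 on average over 30 pairs of libraries (−0.21 to 0.39). Within an age the correlation was 0.12 to 0.39. Between ages it was −0.21 to 0.27, and below 0 in every pair of replicate 1. Comparisons of ages within replicate numbers therefore rest on the label, with little pairing seen in the values. Replicate libraries of a group differed by more than sampling noise, with a chi-square per degree of freedom of 2.42 to 26.8 over 40 pairs. On simulated counts with 200 genes changed 2-fold, edgeR recovered 183 with 13 false calls between untreated ages (12654 genes). For LPS in young cells it recovered 175 with 3 false calls (12647 genes). The simulated counts held no batch effect, and changes smaller than 2-fold, as between ages for most members, were not simulated. Alternatives were the replicate block, DESeq2 1.42.0, other scalings, filters and thresholds, only the compared groups, and leaving out each library or replicate number.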

Additional observations from a re-analysis of the deposited data

Results flagged for a closer look

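Within groups, 32 sets of 5 cultures were examined for a culture whose gap to its nearest neighbour exceeded 0.71 of the group's range, and 5 were found, where chance gives about 1 in 20 sets. Among young untreated cultures, replicate 1 was far above the others for Jund (111.3 CPM) and Atf3 (91.81 CPM). Among young LPS-treated cultures, replicate 4 was far below the others for Atf3 (337.5 CPM) and replicate 1 for Maff (28.35 CPM). Among aged LPS-treated cultures, replicate 1 was far below the others for Egr2 (0.4214 CPM). Replicate 1 thus accounts for 4 of the 5. The source of these values was not tested.

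Junb was the 1 member whose LPS response differed between ages by a test of the difference itself, with a difference in log2 fold change of −0.43 for aged minus young cells (edgeR, adjusted p = 0.0285, smaller in 5 of 5 replicate numbers).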

How the results depend on the processing

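Under the alternatives that kept all libraries, the number of members called with LPS was 6 in each age, except without the filter on low counts. There it was 7 in young cells, as Batf, with all libraries at or below the floor, was added. Between LPS-treated ages it was 3, but 4 with DESeq2 size factors or without the filter, each time with Maff added, and 2 at an adjusted p below 0.01 or with only the compared groups in the fit, each time without Fosl2. With library sizes alone it was 3, with Jund in place of Fosl2. Between untreated ages it was 1, and it became 3 without that filter, with the DESeq2 test or with only the compared groups in the fit, 4 with the replicate block and 0 at an adjusted p below 0.01. In the difference of responses it was 1, and became 2 with the block and 0 at the stricter threshold. Leaving out libraries gave 0 to 3, 6 to 6, 6 to 6, 2 to 4 and 0 to 2 for untreated ages, LPS in young, LPS in aged, LPS-treated ages and the difference. Apart from the calls of Fos, Fosl2 and Egr2 between untreated ages and of Atf3 in the difference, the block changed no call of a member.

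Sign changes were limited to values that were not called. They were Egr2 with LPS in young cells (−0.19 with library sizes alone, −0.0056 with the block), Jun between LPS-treated ages (0.076 with library sizes alone, 0.0064 without the filter, 0.0023 with the compared groups alone) and the difference for Fosl2 (0.050 with library sizes alone, 0.0018 with the block). With libraries or replicate numbers left out, values that could change sign ranged over -0.084 to 0.0040 (Jun) and -0.081 to 0.031 (Jund) between untreated ages, -0.14 to 0.075 (Fos) and -0.22 to 0.21 (Egr2) with LPS in young and -0.046 to 0.49 (Fos) in aged cells, -0.042 to 0.032 (Jun) between LPS-treated ages, and -0.15 to 0.16 (Fosl2), -0.0076 to 0.073 (Jun) and -0.46 to 0.025 (Maff) in the difference. Of 266 values of members from alternatives that kept all libraries, 244 kept direction and call. The cause of these changes was not tested.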
